A study of Mus musculus with 5 samples.

Results

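The probes described here carry the names of ion channel subunits and neurotransmitter receptors. They are the probes whose gene symbol in the platform's annotation starts with Kcn (potassium channels), Cacn (calcium channels), Hcn, Gabr (GABA-A receptors), Gria, Grik, Grin or Grm (glutamate receptors) or Chrn (nicotinic acetylcholine receptors), or with Scn and a digit (sodium channels). The rule itself used names only and no measured value, but it was chosen with earlier results of these data known. It gave 92 probes for 70 genes, of 20355 probes and 9930 named genes on the array. The RNA came from livers of 5 male mice, 17 weeks old and labelled Pitx3eyl-/-, that is homozygous for the eyeless allele of the homeobox gene Pitx3. Each of 5 two-colour cDNA arrays set 1 mutant liver against a pool of wild-type RNA, made from 4 mice per the sample labels and from 6 per the labelling protocol. The mutant RNA was in Cy5 on replicates 1, 2 and 4 and in Cy3 on replicates 3 and 5. The age, sex and strain background of the pool mice are not given in the labels, and no wild-type animal was measured singly.

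Voltage-gated channels open on a change of membrane potential and are built from a pore-forming subunit with auxiliary subunits that set its transport and kinetics. Ligand-gated receptors of the GABA-A, glutamate and nicotinic families open an ion pore when a transmitter binds, while metabotropic glutamate receptors act through G proteins. Many of these genes are best known from neurons and muscle, and hepatocytes are not excitable cells, so the family was taken as a set of transcripts scarce in liver. Several members have known roles elsewhere: Kcnn4, Kcne3, Kcnk5, Kcnj15 and Kcnj16 in epithelia or blood cells, Kcnj8 in vessels, Kcnh2 and Kcnip2 in heart, Cacng1, Chrna1 and Chrne in skeletal muscle, and Kcnu1 in sperm. Grina met the prefix but encodes a membrane protein that is no subunit of a glutamate receptor.

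The deposited values are log2 ratios within an array and hold no brightness, so whether a transcript was present in liver could not be read from them. Missing values, the spread between arrays and the dependence on the dye were described instead. A positive sign is taken to mean more label from the mutant than from the pool; that reading is likely but is stated nowhere in the labels. On each array 1 identical extreme value, between 16.28 and 17.07 in size, stood for a ratio that could not be formed, and it was set to missing. These codes were positive with the mutant in Cy5 and negative with the mutant in Cy3, so the swapped arrays were read as already turned by the authors. Over all probes, the Pearson correlation between pairs of arrays lay between -0.02 and 0.11 for arrays of the same orientation (4 pairs) and between -0.26 and -0.05 for arrays of opposite orientation (6 pairs), over 9752 to 12759 probes per pair. No name on this array was checked by sequence, and a probe may not measure the gene it is named for.

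Channel and receptor probes were measured slightly less often than the array as a whole, and far from rarely. Of their 460 possible values, 147 (32.0%) were missing, 143 as blanks and 4 as codes, against 28.6% of the values of all probes. Hepatocyte markers, 26 probes for secreted proteins and metabolic enzymes of the liver such as albumin and the urea cycle enzymes, lacked 10.0% of their values. Probes named as cytosolic ribosomal proteins (94 probes) lacked 20.4%. Ion channels outside the rule, such as the Trp, Clcn and P2rx families (49 probes), lacked 30.2%, and partners and scaffolds of channels such as Dlg, Shank and Homer proteins (48 probes) lacked 26.7%. Neuron markers lacked 30.0% (20 probes) and skeletal and heart muscle markers 21.5% (13 probes). The order placed the channel probes near the array average and below the hepatocyte markers in completeness. These shares are descriptions and were not tested against each other.

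**Figure D1:**
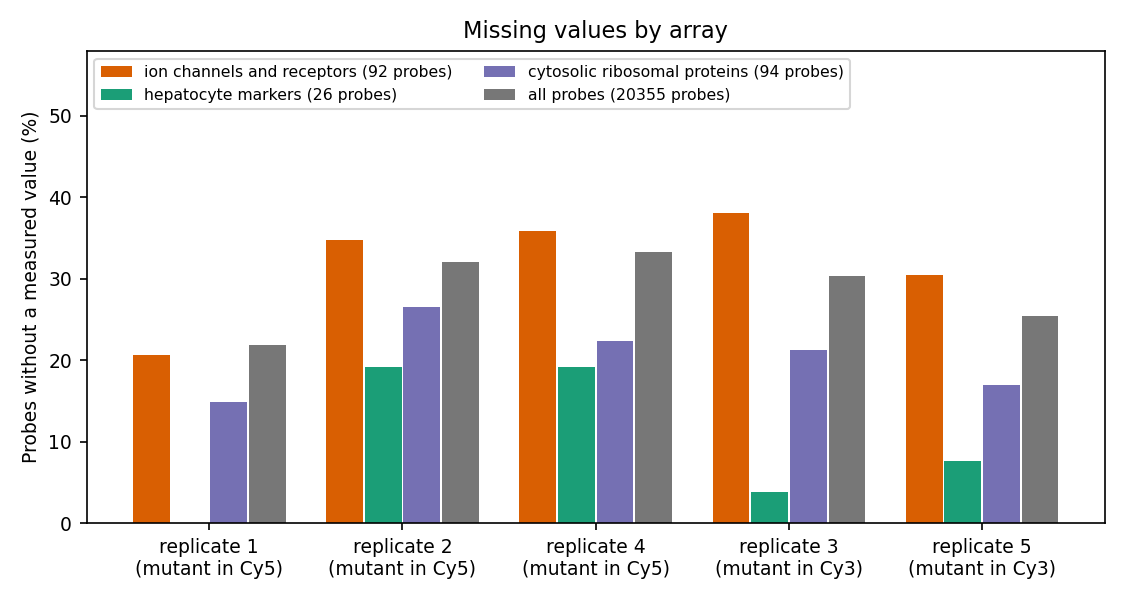
Share of probes without a measured value (percent, y axis) on each array (x axis, arrays with the mutant in Cy5 left of those with the mutant in Cy3) for channel and receptor probes, hepatocyte markers, cytosolic ribosomal proteins and all probes. Channel probes lay above all probes on 4 of 5 arrays and below them on replicate 1 (20.7% against 21.9%), where no hepatocyte marker was missing.

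From replicate 1 to replicate 5, the shares of channel probes missing were 20.7%, 34.8%, 38.0%, 35.9% and 30.4%. For all probes the shares were 21.9%, 32.1%, 30.3%, 33.3% and 25.4% in the same order. Replicate 1 was the most complete array for both, and the widest gap between channel probes and all probes was on replicate 3. Over the 3 arrays with mutant cDNA in Cy5, 30.4% of channel values were missing, against 34.2% over the 2 with mutant cDNA in Cy3. For all probes these shares were 29.1% and 27.9%. Among the channel probes, 5 had no value on any array with the mutant in Cy5 and 14 had none on either array with the mutant in Cy3 (5.43% and 15.2%). Over all probes these shares were 4.45% and 11.4%, and 3 arrays stand against 2.

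Complete series were a minority: 25 of the 92 channel probes (27.2%) had values on all 5 arrays, against 31.3% of all probes. A further 18 had 4 values, 25 had 3, 18 had 2, 5 had 1 and 1 had 0. The probe without any value was 1 of 4 named Cacng4, a transmembrane regulator of AMPA receptors, whose other 3 probes had 1 or 2 values each. The 5 probes with 1 value were named Grina (1.65 on replicate 3), Cacng1 (-0.998 on replicate 5), Cacng4 (-0.99 on replicate 4), Cacna2d1 (-2.72 on replicate 2) and Cacnb4 (-1.88 on replicate 3). The 4 coded values fell on 4 different arrays, to Cacng4 on replicate 1, Chrnb2 on replicate 3, Kcnip2 on replicate 4 and Cacna1c on replicate 5. No channel probe was coded on more than 1 array.

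Missing values differed between roles, with few probes behind each figure. Auxiliary calcium channel subunits, with all Cacng genes counted here by name, lacked 46.2% of their 80 values. Among them were the Cacng4 probes, with at most 2 values each. Pore-forming calcium channel subunits lacked 26.7% of 60. Pore-forming potassium channel subunits lacked 32.9% of 140 values and auxiliary ones 30.9% of 55. Ionotropic glutamate receptors lacked 31.1% of 45, nicotinic receptors 17.5% of 40, GABA-A receptors 30.0% of 10 and metabotropic glutamate receptors 6.67% of 15. Hcn3, a pacemaker channel gene, lacked 2 of its 5 values, and Scn3b, an auxiliary sodium channel subunit, lacked 0.

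Many values, less an offset specific to the array, equal the log2 of a small whole number divided by another. For whole numbers up to 5, 8.31% of the measured channel values lay there within 0.0015, against 6.92% of all values, 9.40% for hepatocyte markers and 5.08% for ribosomal proteins. For whole numbers up to 20 the shares were 31.0% for channel values and 29.7% for all, where part of the matches may be coincidence. Neither measure set the channel probes apart from both abundant lists.

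The spread between arrays was wider for channel probes than for the array as a whole. Over the 25 channel probes with 5 values, the median SD between arrays was 1.17 on the log2 scale after each array was centred on its median, with quartiles of 0.94 and 1.32. Over all 6364 probes with 5 values the median was 0.73, with quartiles of 0.49 and 1.27. Of the 25 channel probes, 19 had an SD over that median of all probes. Hepatocyte markers had a median of 0.56 (17 probes), ribosomal proteins of 0.59 (48 probes), other ion channels of 0.88 (16 probes), partners and scaffolds of 0.83 (18 probes) and neuron markers of 0.78 (4 probes). The difference is in the lower part of the distribution, since the upper quartiles of channel probes and of all probes lay close together. No test was made of it.

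**Figure D2:**
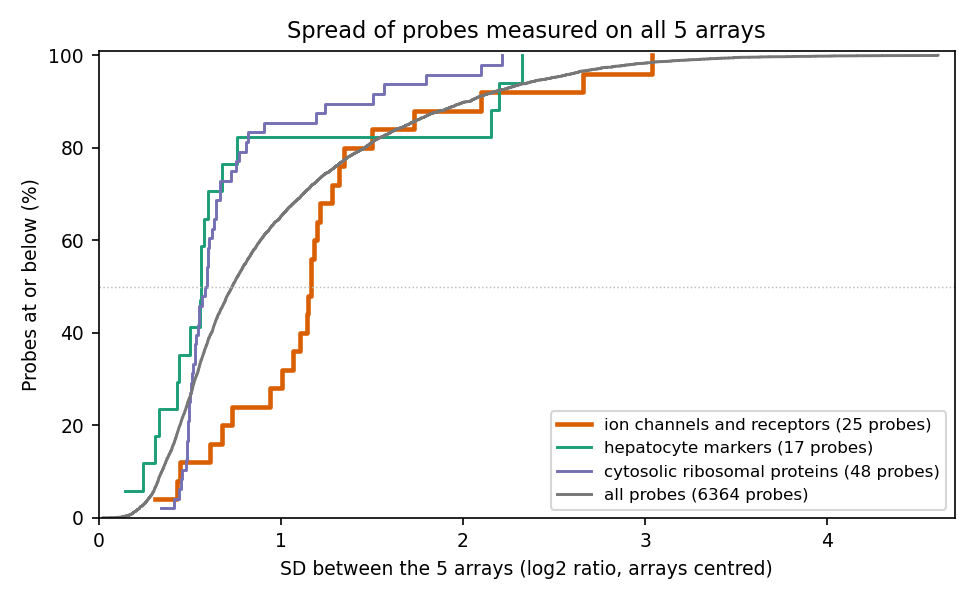
Cumulative share of probes (percent, y axis) by the SD of their 5 log2 ratios (x axis, arrays centred), for channel and receptor probes, hepatocyte markers, cytosolic ribosomal proteins and all probes measured on all 5 arrays. The channel probes reach 50% at 1.17, to the right of all probes at 0.73, and the curves meet above the upper quartile.

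Among the 25 channel probes with 5 values, in the direction deposited, the steadiest was Kcnq3, a subunit of the M-type potassium channel. Its log2 ratio was -0.42, 0.41, 0.40, 0.57 and 0.24 on replicates 1 to 5 (SD 0.31 on centred arrays). Grin3b, an NMDA receptor subunit, had 0.44, -0.48, -0.25, -0.25 and 0.07 (SD 0.43). Both stayed within a 2-fold ratio on every array and had values on either side of 0. Kcnk2, a mechanosensitive two-pore-domain potassium channel, had 0.42, -0.29, 0.16, -0.32 and 0.67 (SD 0.45). Kcnd3, a pore subunit of A-type potassium channels, and 1 probe of Chrnb2, a nicotinic receptor subunit, followed with SDs of 0.61 and 0.68.

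Among the same 25 and in the same direction, the widest spread belonged to 1 of the 3 tested probes of Cacna1a (number 6279), the pore of P/Q-type calcium channels. Its values were -1.32, -4.94, 1.54, 1.38 and 2.99 on replicates 1 to 5 (SD 3.04), from strongly negative on replicate 2 to strongly positive on replicate 5. Kcnu1, a potassium channel of sperm, had -1.30, -4.03, -0.26, 2.88 and 2.08 (SD 2.66). Cacng8, another AMPA receptor regulator, had -0.14, 2.37, 2.52, 4.96 and -0.08 (SD 2.10). Its values split into 2 near 0 and 3 well above, and each of these held both dye orientations. Cacna1h, a T-type calcium channel, had 0.43, -0.34, -0.59, 2.53 and -2.08 (SD 1.73), and 1 probe of Grm8, a metabotropic glutamate receptor, had -0.21, 3.65, 0.42, 0.42 and 1.32 (SD 1.5004). The largest single value in size among all channel probes was -6.98 on replicate 2, for a probe of Cacna1g (number 1511), a T-type calcium channel. Another Cacna1g probe (number 1881) had 0.13 on that array.

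Of the 25 channel probes with 5 values, 0 had the same sign on all arrays as deposited, against 5.99% of all probes with 5 values. With the 2 swapped arrays turned, an alternative chosen after the data were seen, 3 did (12%, against 8.03% of all probes), namely Kcnk4, Kcnn3 and Scn3b. From replicate 1 to replicate 5, the median log2 ratio of the measured channel probes was -0.42, -0.14, 0.07, 0.83 and 0.53. Against the median of all probes on the same array, the channel median was lower by 0.23 on replicate 1 and by 0.11 on replicate 2, and higher by 0.07, 0.71 and 0.30 on replicates 3, 4 and 5. On replicate 1, 21 of 73 measured channel probes lay above 0, and on replicate 4 it was 42 of 59. Over all probes these counts were 6697 of 15892 and 7306 of 13576. Above the median of all probes on the same array lay 26 of the 73 and 40 of the 59. Hepatocyte markers had medians of 0.13, -0.56, -0.22, 0.08 and -0.05 on replicates 1 to 5. Between pairs of arrays the channel values had Pearson correlations of -0.11 to 0.20 in the same orientation and of -0.29 to 0.15 in opposite orientations, across 38 to 54 probes that share an array's scaling.

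For the comparison of mutant livers with the pool, limma fitted a mutant coefficient and a dye coefficient to probes with at least 4 values. At least 1 of these values had to come from each dye orientation. The mutant coefficient weights both orientations equally, and the dye coefficient is the mean with the mutant in Cy5 minus the mean with the mutant in Cy3, divided by 2. Of the 92 channel probes, 43 (38 genes) entered this test, among 11300 of all probes. A probe was called at a Benjamini-Hochberg adjusted p under 0.05 over all probes tested. No channel probe was called for the mutant coefficient: limma called 0 of 43, with a lowest adjusted p of 0.999, and 0% of all probes. At an unadjusted p under 0.05 there were 3 channel probes above 0 (6.98%, against 2.35% of all probes) and 1 below 0 (2.33%, against 1.81% of all probes).

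The 43 mutant coefficients were 23 above and 20 below 0, with a median of 0.05 on the log2 scale, against 0.04 over all probes tested. Their median size was 0.32, the same as over all probes to 2 decimals; with 1 replicate left out, and other probes entering the test, it was 0.39 to 0.64, against 0.37 to 0.43 over all probes. The median of the channel probes turned to -0.04 without replicate 5, while with each of the other replicates left out it stayed above 0. As deposited, only 1 of the 43 had the sign of its estimate on every measured array, Grik4 (2.33%, against 7.96% of all probes tested). With the swapped arrays turned Grik4 no longer did, and 6 others did (14%, against 11.7% of all probes), namely Gria3, Kcnip2 (number 15917), Kcnk4, Kcnn3, Kcnq5 and Scn3b. With the signs of the swapped arrays turned, the mutant and dye coefficients change places in size and the channel median became -0.16.

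**Figure D3:**
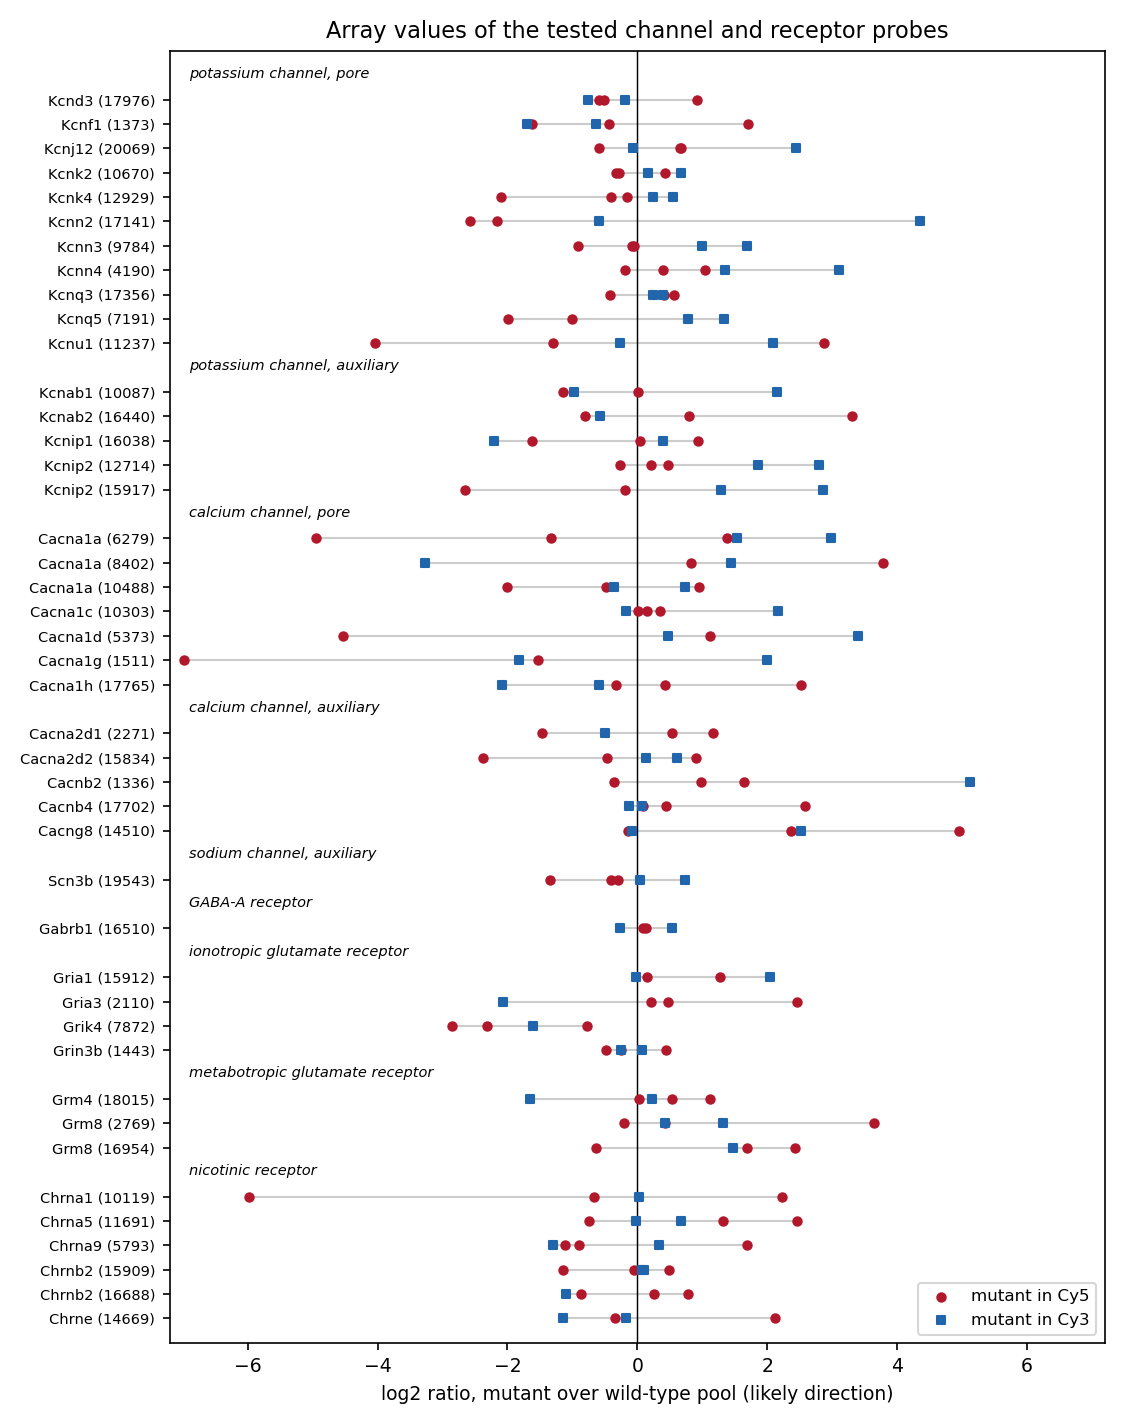
Log2 ratios on single arrays (x axis) of the 43 tested channel and receptor probes (rows, grouped by role, probe number in brackets), with circles for arrays with the mutant in Cy5 and squares for the mutant in Cy3 and a grey line over the range. Most rows cross 0, and in the direction deposited Grik4 is the row that lies wholly on 1 side.

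Among pore-forming potassium channel subunits 11 probes were tested, 6 above and 5 below 0, with mutant coefficients from -0.64 to 1.32 and 0 called. Kcnn4 encodes a calcium-activated channel of blood and epithelial cells. A Kcnn4 probe left out of the test (number 5197) had 1.58 on replicate 4 and -2.13 on replicate 5. The tested Kcnn4 probe (number 4190) had -0.19, 0.39, 3.11, 1.05 and 1.35 on replicates 1 to 5. It was positive on 4 arrays, with both arrays of the mutant in Cy3 above all 3 in Cy5. Its mutant coefficient was 1.32 ± 0.39 (SE, n = 5), with a limma adjusted p of 0.999. Kcnn3, the related small-conductance channel of neurons, had -0.91, -0.06, 1.69, -0.08 and 1.003, again higher with the mutant in Cy3, and a coefficient of 0.50 ± 0.30 (adjusted p 0.999 in limma). Kcnf1, a silent modulatory subunit, had -1.62, -0.44, -0.63, 1.70 and -1.70 with a coefficient of -0.64 ± 0.56. Kcnj12, an inward rectifier of muscle and brain, had 0.66, -0.58, 2.45, 0.68 and -0.06 on replicates 1 to 5, with replicate 3 highest. The remaining 7 probes had coefficients between -0.27 (Kcnd3) and 0.25 (Kcnq3).

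Auxiliary potassium channel subunits gave 5 tested probes, 4 above and 1 below 0, with 0 called. The Kcnip genes encode calcium-binding proteins that bind A-type channels. A probe of Kcnip2 (number 12714) had 0.21, -0.26, 2.80, 0.48 and 1.86 on replicates 1 to 5. Its highest values were the 2 with the mutant in Cy3, and its mutant coefficient was 1.24 ± 0.30 (SE, n = 5; limma adjusted p 0.999). The other tested probe of Kcnip2 (number 15917) had -0.19 and -2.66 with mutant label in Cy5, against 2.86 and 1.30 with mutant label in Cy3, and a coefficient of 0.33 ± 0.59. Kcnip1 had -1.62, 0.93, -2.20, 0.05 and 0.39, with a coefficient of -0.56 ± 0.58. The beta subunits Kcnab1 and Kcnab2 stood at 0.01 and 0.26.

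Of 7 tested probes of pore-forming calcium channel subunits, 4 were above and 3 below 0. Of 5 tested probes of auxiliary calcium channel subunits, 3 were above and 2 below, with 0 called in either role. Cacnb2, an intracellular beta subunit best known from heart, had -0.35, 0.99 and 1.65 with the mutant in Cy5 and 5.13 on replicate 5, where alone it was measured with the dyes swapped. Its mutant coefficient of 2.95 ± 0.54 (SE, n = 4; limma adjusted p 0.999) rests on that array, and the mean of its 3 arrays with the mutant in Cy5 was 0.76. Without replicate 5 it could not be tested. Cacng8 had a coefficient of 1.81 ± 0.84, which ranged between 1.16 and 2.46 as single replicates were left out and was 0.59 with the swapped arrays turned.

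A probe of Cacna1g left out of the test (number 1881) had 0.13 and 0.69 on replicates 2 and 4. On the lower side, the tested Cacna1g probe (number 1511) had -6.98 and -1.54 on the same arrays, with mutant label in Cy5. With mutant label in Cy3 it had -1.82 and 2.00. Its coefficient was -2.08 ± 1.18 (SE, n = 4; limma adjusted p 0.999), and was -0.72 without replicate 2. The tested probe of Cacna1c, the pore of the L-type channel of heart and vessels, had 0.35, 0.01, 2.17, 0.15 and -0.18. Only its value on replicate 3 lay far from 0. Another Cacna1c probe (number 9602), left out of the test, had -2.35 on replicate 3 and 3.27 on replicate 4. The 3 probes of Cacna1a gave coefficients of 0.32, 0.70 and -0.16. Scn3b, the sole sodium channel probe, had -0.41, -0.30, 0.05, -1.35 and 0.74 and a coefficient of -0.15 ± 0.32.

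Among ionotropic glutamate receptors 4 probes were tested, 1 above and 3 below 0, with 0 called. Grik4, a kainate receptor subunit, had -0.77, -2.86, -1.60 and -2.31 on replicates 1 to 4 and no value on replicate 5. All 4 values were below 0 and the orientations overlapped. The mutant coefficient was -1.79 ± 0.56 (SE, n = 4), with a limma adjusted p of 0.999 and 1 array with the mutant in Cy3. The AMPA receptor subunit Gria1 had 0.15, 1.27, 2.05 and -0.02 on replicates 1, 2, 3 and 5, and a coefficient of 0.86 ± 0.51, which was 0.35 without replicate 3. Gria3, another AMPA receptor subunit, had 0.48, 0.21 and 2.46 with the mutant in Cy5 and -2.06 with the mutant in Cy3, and a coefficient of -0.51 ± 0.60.

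Metabotropic glutamate receptors gave 3 tested probes, of Grm4 and Grm8, both coupled to inhibitory G proteins. Grm4 had 0.54, 1.12, 0.22, 0.03 and -1.65 on replicates 1 to 5, below 0 on the last alone. Both probes of Grm8 had coefficients above 0, at 1.08 ± 0.65 (n = 5) and 1.32 ± 0.73 (n = 4), and Grm4 was at -0.08 ± 0.40 (n = 5; SE throughout). The second Grm8 probe had -0.64, 2.43, 1.69 and 1.47 on replicates 1, 2, 4 and 5, so that replicate 1 was below 0 and replicate 2 highest on both Grm8 probes. Without replicate 2 the first probe of Grm8 stood at 0.49. The limma adjusted p was 0.999 for each. Gabrb1, the only tested GABA-A receptor probe, had 0.09, 0.14, 0.54 and -0.27 on replicates 1, 2, 3 and 5, within a 2-fold ratio on each.

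Nicotinic receptors gave 6 tested probes, 2 above and 4 below 0, with 0 called. Chrna5 had -0.74, 1.32, -0.02, 2.46 and 0.68 on replicates 1 to 5 and a coefficient of 0.67 ± 0.53 (SE, n = 5; limma adjusted p 0.999), which was 0.31 without replicate 4. A probe of Chrnb2 (number 16688) had -0.87, 0.25, 0.78 and -1.10 on replicates 1, 2, 4 and 5, with a coefficient of -0.52 ± 0.49. Its sister probe stood at -0.07 ± 0.35. The muscle subunit Chrna1 had a wide range, from -5.99 on replicate 1 to 2.23 on replicate 4, and a coefficient of -0.72 ± 1.69. For Hcn3 and Grina no probe had enough values for the test.

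Members with 2 or 3 values were left out of the test, and their values show how few arrays each rests on. Kcnh2, the pore of a repolarising current of the heart, had -0.40 on replicate 1 and 4.57 on replicate 3. Kcnj8, a pore subunit of ATP-sensitive channels in vessels, had -0.56, 0.42 and -2.01 on replicates 1, 2 and 5. The epithelial inward rectifier Kcnj16 had -3.36, -0.39 and 3.86 on replicates 1, 4 and 5. Each of these 3 had values on either side of 0.

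Kcnh3, a neuronal potassium channel, stayed close to 0 with -0.22, -0.45 and -0.07 on replicates 1 to 3. Kcna1, a delayed rectifier of axons, had 5.27 on replicate 4, the highest value of any channel probe on that array, and -0.83 on replicate 5. Cacng2, the regulator of AMPA receptors also known as stargazin, had -4.91, -0.79 and 4.16 on replicates 1, 3 and 5. The neuronal nicotinic subunit Chrna4 had 0.34, 4.05 and 0.45 on replicates 1, 4 and 5. Hcn3 had 0.31, 0.99 and -1.08 on the same arrays, and Gabra5, a GABA-A receptor subunit, -0.26, -0.75 and 0.10 on replicates 1, 2 and 5.

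Dye coefficients of the channel probes were larger in size, by their median, than those of all probes, and none was called by limma. The median size of the dye coefficient was 0.58 over the 43 channel probes, against 0.35 over all probes tested. With values at small ratios left out, which kept 20 channel probes in the test, it was 0.35 against 0.30. For 25 of the 43 (58.1%) the dye coefficient exceeded the mutant one in size, against 52.9% of all probes. Without replicate 5 it did so for 19 of 43 channel probes, against 5817 of 11473 over all probes. The dye coefficient was below 0, meaning higher ratios with the mutant in Cy3, for 27 of 43 (62.8%), against 54.6% of all probes. Its median was -0.16 against -0.05. With each array centred on its median 24 of 43 were below 0 (55.8%, against 47.9% of all probes) and the medians were -0.09 against 0.03. With values at small ratios left out, 15 of 20 were below 0 (75%, against 55.6% of all probes). Without replicate 1, 24 of 48 were below 0 (50%, against 54.2% of all probes), with medians of -0.067 against -0.05. limma called 0 of 43 for this coefficient, with a lowest adjusted p of 0.495, and 0% of all probes. At an unadjusted p under 0.05, 5 channel probes lay below 0 (11.6%, against 5.89% of all probes) and 0 above (against 1.49% of all probes).

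**Figure D4:**
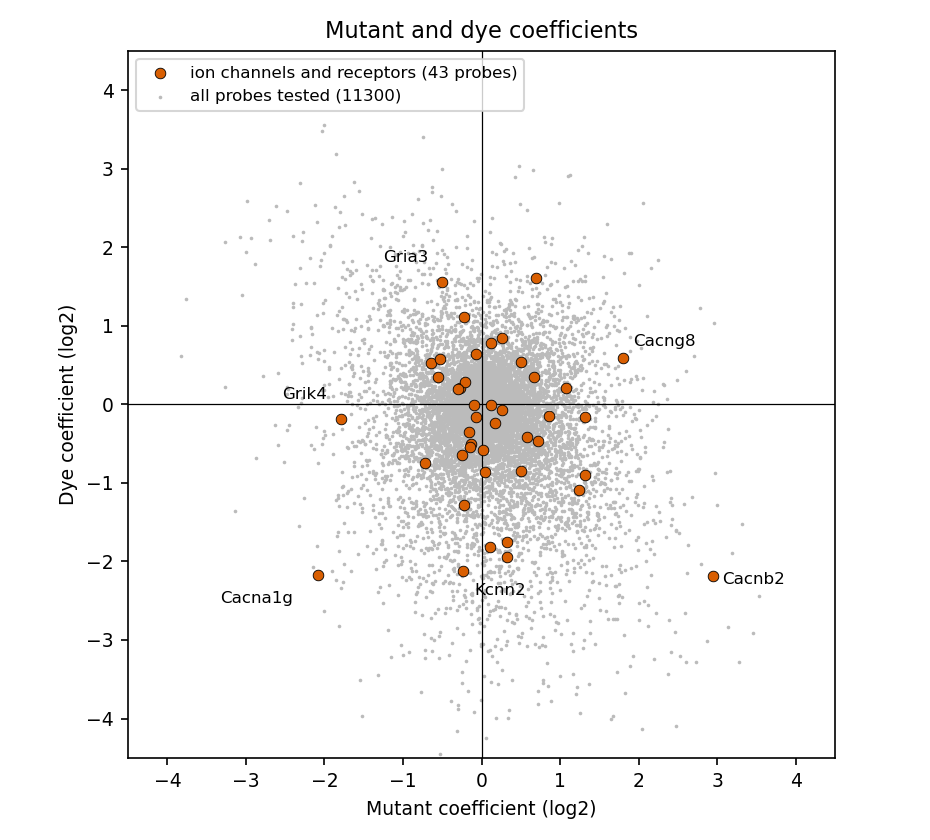
Mutant coefficient (x axis, log2) against dye coefficient (y axis, log2) for the 43 channel and receptor probes and for all 11300 probes tested. The channel probes lie within the cloud of all probes, with Cacnb2 at 2.95 and -2.19. Their median size is 0.58 for the dye coefficient and 0.32 for the mutant coefficient.

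On 10 of the 43 channel probes every value with the mutant in Cy5 was lower than every value with the mutant in Cy3 (23.3%, against 18.7% of all probes). On 4 it was higher (9.30%, against 11.9% of all probes). For 3 of these 14 probes (Cacnb2, Chrnb2 and Gria3) a single array stood for the mutant in Cy3. The 10 were Kcnn2, Kcnn3, Kcnn4, Kcnq5, Kcnk4, both tested Kcnip2 probes, Cacnb2, Cacna1a (number 6279) and Scn3b. Potassium channel probes made up 16 of the 43 tested. Over the pore-forming potassium channel probes 9 of 11 dye coefficients were below 0, with a median of -0.65.

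Kcnq5, a relative of Kcnq3, was among the probes whose values were all lower with the mutant in Cy5. Replicates 1 and 2, with mutant label in Cy5, gave -1.01 and -1.997, against 0.77 and 1.34 on replicates 3 and 5 with mutant label in Cy3, so that the 2 orientations had opposite signs. Its dye coefficient was -1.28 ± 0.36 (SE, n = 4; limma adjusted p 0.558) and its mutant coefficient -0.22 ± 0.36. Kcnn2, a small-conductance channel, had -2.16 and -2.57 with mutant label in Cy5, against -0.60 and 4.36 with mutant label in Cy3 (dye coefficient -2.12 ± 0.91). For Kcnip2 the dye coefficients were -1.09 ± 0.30 and -1.75 ± 0.59, with adjusted p-values of 0.509 and 0.630 in limma. For Kcnn3 the dye coefficient was -0.85 ± 0.30 (adjusted p 0.627). On the other side stood Gria3 at 1.56 ± 0.60, Cacna1h at 1.11 ± 0.53 and Cacna1a (number 8402) at 1.61 ± 1.004.

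Of the channel genes, 15 had 2 or more probes (37 probes). Only tested probes were set side by side, which left 4 genes and 6 pairs. Probes left out of the test were not paired. Mutant coefficients had the same sign in 4 of the 6 pairs and dye coefficients in 2, against 51.6% and 52.3% of 1777 pairs of probes over all genes. For Cacna1a the dye coefficients of the 3 probes were -1.95, 1.61 and -0.35, and replicate 3 alone gave 1.54 on the first and -3.27 on the second. For Kcnip2 both tested probes were higher with the mutant in Cy3. Among its probes left out of the test, number 11982 had 0.77 with the mutant in Cy5, between 0.23 and 1.165 with the mutant in Cy3. Number 13547 had -5.99 and a coded value with the mutant in Cy5, and -1.56 and 0.50 with the mutant in Cy3. With 6 pairs these counts cannot separate the channel probes from the array.

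Other transcripts of excitable cells gave 0 called probes for either coefficient in limma, and so did hepatocyte markers, ribosomal proteins, smooth muscle markers (4 tested probes) and glial markers (3 tested probes). Of 13 tested probes of neuron markers 9 were above and 4 below 0 for the mutant coefficient (median 0.10), and 0 had an unadjusted p under 0.05. Skeletal and heart muscle markers gave 5 above and 4 below (median 0.05), with 0 at that level. The 27 tested probes of other ion channels had 21 above and 6 below 0 (median 0.19), with Trpv4 above 0 at an unadjusted p under 0.05. Channel partners and scaffolds had 14 above and 11 below (median 0.07), with Dlg1 below 0 at that level. The median size of the dye coefficient was 0.43 for other ion channels, 0.32 for partners and scaffolds, 0.37 for neuron markers, 0.45 for glial markers, 0.17 for smooth muscle markers, 0.27 for hepatocyte markers and 0.15 for ribosomal proteins, all under the 0.58 of the channel and receptor probes. It was 0.68 for skeletal and heart muscle markers (9 probes), above it. At an unadjusted p under 0.05 for the mutant coefficient, hepatocyte markers gave 0 above and 1 below 0 (Tat) of 22, and ribosomal proteins 0 above and 2 below of 62 (Rpl4 and Rps19bp1, a binding protein that shares the prefix).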

How the data were processed

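The authors deposited log2 ratios of the 2 channels of each array; the unit was read from the deposited values, many of which equal the log2 of a small ratio. Per the labels' protocols, 20 µg of total RNA were labelled indirectly with Cy3 or Cy5; for the scanner, background correction, normalization and direction of the ratio, the sources used here give nothing. Array medians were -0.19, -0.04, -0.00, 0.11 and 0.23. Values over 12 in size were set to missing. Names came from the platform's annotation: 14030 probes with 1 symbol, 5 with several, 6320 without. All 92 channel probes matched a gene identifier of the GRCm38.p6 gene table. No column was left without a sample (0). limma 3.58.1 in R 4.3.3 (lmFit, eBayes) fitted the whole table with a mutant and a dye term. Probes needed at least 4 values in all and at least 1 in each orientation. The ratio against 0 leaves out the spread between wild-type animals. The p-values measure the spread between these 5 arrays, whose number limits the precision. The fit was checked on simulated data. Alternatives were array centring, coded values kept, no dye term, other minimums of arrays, small ratios left out, gene averages, turned swaps and each replicate left out. Named probes were those of lowest p above and below 0 for either coefficient, of lowest and highest SD, and the 2 of lowest p per role. Coded, unmeasured and paired probes were named too; others were named after their values were seen. The members and lists were chosen with earlier results of these data known.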

Additional observations from a re-analysis of the deposited data

Results flagged for a closer look

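Of 34 sets of values looked at, 30 for the named channel probes and 4 for the summaries by array, 1 stood apart, where chance flags about 1 in 20. On replicate 5, 17.2% of the measured channel values lay at ratios of whole numbers up to 20, against 31.5% to 36.8% on the other 4 arrays. Over all probes the share on replicate 5 was 26.5%. The other tested channel probes, among them those of Cacna1c (10303), Cacnb4 (17702) and Kcnj12, were not among these sets.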

How the results depend on the processing

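No paired analysis was possible because all samples belong to 1 group. limma called 0 channel probes for the mutant coefficient and 0 for the dye coefficient under every alternative run; the dye coefficient has no value without a dye term. The share of channel values missing became 53.0% when values at small ratios were left out. The median SD lay between 1.08 and 1.30 over the alternatives, with all probes between 0.67 and 0.80.

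None of the 30 named probes was called. Without the dye term 4 of the 30 turned sign: Cacna1a (6279) to -0.07, Gria3 to 0.27, Grm4 to 0.053 and Kcnu1 to -0.13. With the swapped arrays turned 19 did: Cacna1a (6279) to -1.95, Cacna1h to 1.11, Cacnb2 to -2.19, Chrnb2 (16688) to 0.58, Gabrb1 to -0.0095, Gria1 to -0.15, Gria3 to 1.56, Grm4 to 0.64, Grm8 (16954) to -0.16, Kcnd3 to 0.21, Kcnf1 to 0.53, Kcnip1 to 0.34, Kcnip2 to -1.09 (12714) and -1.75 (15917), Kcnk2 to -0.24, Kcnn3 to -0.85, Kcnn4 to -0.91, Kcnq3 to -0.067 and Kcnu1 to -0.87. That alternative exchanges the mutant and dye coefficients by construction. Centring turned 0 of 30, and leaving out small ratios 0 of the 11 still tested.

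Leaving out 1 replicate turned these probes, given by their ranges: Cacna1a -0.43 to 1.15 (6279) and -0.48 to 1.88 (8402), Cacna1h -0.64 to 0.14, Chrnb2 (15909) -0.25 to 0.16, Chrne -0.50 to 0.73, Gabrb1 -0.080 to 0.33, Grin3b -0.23 to 0.0025, Grm4 -0.54 to 0.39, Kcnip1 -1.21 to 0.089, Kcnip2 (15917) -0.29 to 0.94, Kcnq5 -0.47 to 0.025, Kcnu1 -0.88 to 0.85 and Scn3b -0.32 to 0.028. Of the other 17 named probes, 12 moved by over 1.5 times in size with at least 1 replicate left out and kept their sign, and 5 stayed within 1.5 times where they could be tested. The cause was not tested. Without brightness values, signal over background could not be judged.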
